A study of Homo sapiens with 66 samples.

Results

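MALAT1, NEAT1 and 4 genes for RNA-binding proteins of paraspeckles or the nuclear matrix, SFPQ, NONO, PSPC1, and MATR3, were followed through all libraries of 2 RNA-seq studies of THP-1 cells, a human monocytic leukemia line. The 6 genes were chosen by name and found by their Ensembl gene identifiers among the 57820 genes of the count tables. None was chosen by a cutoff on a measured value, but earlier results of these data were known. MALAT1 is a long noncoding RNA that is retained in the nucleus and collects in nuclear speckles, the stores of splicing factors. NEAT1 is the architectural RNA of paraspeckles: its long transcript holds the nuclear body together, and its short transcript shares the start of the gene but does not build the body. SFPQ, NONO, and PSPC1 form the family of DBHS proteins, which dimerize with each other and bind NEAT1, whereas MATR3 is an RNA-binding protein of the nuclear matrix that binds within introns and interacts with SFPQ and NONO. Paraspeckles can hold RNAs with inverted Alu repeats in the nucleus, and such repeats are the usual substrate of ADAR, the enzyme that turns adenosine into inosine.

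Study 1 used 1 STING-deficient clone with a Cas9 transgene. Cells received nontarget gRNA (CTRL) or gRNAs against GFP, ADAR, HNRNPC, or both ADAR and HNRNPC (ADAR+hnRNPC) by nucleofection, and their RNA was taken 3, 4, or 5 days later. A further CTRL group of day 4 was exposed to IFN-α over 24 h. With 3 replicates in each of 16 groups, 48 libraries were made from total RNA after removal of rRNA. Study 2 used a wild-type Cas9-transgenic clone, other gRNAs, and day 4 alone, with 18 libraries in 9 groups of 2: total and cytosolic (digitonin-soluble) RNA for CTRL and for each targeting of ADAR, HNRNPC, or both, and digitonin-insoluble RNA, enriched in nuclei and mitochondria and called nuclear here, for hnRNPC targeting alone. Each study thus rests on 1 clone, and the studies differ in clone, gRNAs, and fractionation at once.

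On GRCh37, MALAT1 (chr11:65265111-65275544) and NEAT1 (chr11:65190245-65213011) lie on the plus strand of the same chromosome. The long NEAT1 transcript runs to 22766 bases from the start of the gene, whereas the 8 short ones end within 3739 bases. Gene counts join both, so a change of isoform cannot be read from them. SFPQ (chr1:35641979-35659047) and PSPC1 (chr13:20248892-20357159) lie on the minus strand, and NONO (chrX:70474664-70521372) and MATR3 (chr5:138629363-138667366) on the plus strand. The antisense RNA TALAM1 overlaps MALAT1, PSPC1-AS2 overlaps PSPC1, ZMYM3 overlaps NONO, and a further record named MATR3 overlaps MATR3. Whether reads were counted by strand is not given in the sources used here, so reads of MALAT1 and TALAM1 cannot be told apart, nor can those of the other overlapping pairs.

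Reads on genes numbered 95107690 to 152829008 per library in study 1 and 49666958 to 73873756 in study 2. All 6 genes passed the filter on low values in both studies and had at least 4907 reads in any library of study 1. Of the myeloid markers, CD33, SPI1, LYZ, ITGAM, CSF1R, and MPO were detected in all libraries, whereas CD68 had at most 0.292 CPM (counts relative to the scaled library total) in study 1. The T cell, epithelial, and fibroblast markers CD3E, EPCAM, and COL1A1 stayed at or below 0.311 CPM in study 1. HNRNPC mRNA fell by 1.09, 1.18, and 1.39 on the log2 scale in hnRNPC-targeted cells of study 1 on days 3, 4, and 5. ADAR mRNA in ADAR-targeted cells of study 1 did not pass on any day (log2 difference −0.19, −0.13, and −0.03), and it was higher by 1.75 in ADAR+hnRNPC-targeted cells on day 5. In total RNA of study 2, ADAR mRNA had 858 and 869 CPM in CTRL and 564 and 448 CPM in ADAR-targeted cells. The study reports successful targeting of ADAR by Western blot in separate experiments, and protein was not measured in these libraries.

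Levels of different genes can be compared only per length of exon. In CTRL cells on day 4, MALAT1 had 94.9 ± 26.8 CPM per kilobase of exon (SD, n = 3) and SFPQ 90.5 ± 2.90. These 2 levels did not differ beyond their spread. MATR3 followed with 65.4 ± 3.85, NONO with 49.0 ± 0.96, PSPC1 with 22.6 ± 0.59, and NEAT1, whose length is set by the long transcript, with 2.75 ± 1.01. From SFPQ downward, each level lay beyond the spread of the next on these lengths. The lengths join the exons of all transcripts in a newer annotation than the one used for counting. A length can thus hold bases that were not counted, to an extent that differs by gene, and the order of the genes depends on it. Over all 48 libraries of study 1, the level per length ranged from 61.9 to 180.2 (median 107) for MALAT1 and from 1.85 to 6.16 (median 3.60) for NEAT1. The protein-coding genes moved less, SFPQ from 54.3 to 93.6, MATR3 from 45.8 to 70.5, NONO from 29.2 to 52.5, and PSPC1 from 19.4 to 29.3.

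The 2 nuclear RNAs varied strongly between replicates of the same group. In CTRL cells on day 4, the 3 replicates had 1296, 926, and 747 CPM of MALAT1 and 88.4, 55.6, and 44.2 CPM of NEAT1. In hnRNPC-targeted cells on day 4, MALAT1 had 1835, 1053, and 1004 CPM and NEAT1 127, 71.5, and 73.9 CPM. In both groups replicate 1 was highest for both RNAs. The mean SD within groups on the log2 scale was 0.36 for MALAT1 and 0.42 for NEAT1. This was more than in 97.9% and 98.5% of the genes tested, whose median was 0.099. SDs of SFPQ (0.066), NONO (0.041), PSPC1 (0.052), and MATR3 (0.059) were below that median.

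The deviations of MALAT1 and NEAT1 from their group means moved together (Pearson r = 0.98 over 48 libraries) and with the number of intron reads per 100 gene reads, which was 17.4 to 27.0 per library. The r with this intron share was 0.94 for MALAT1 and 0.96 for NEAT1. The library with most MALAT1 in its group was the one with most NEAT1 in 15 of 16 groups, and the one with most intron reads also in 15 of 16. For MATR3 the r was −0.75, for NONO −0.47, for PSPC1 −0.41, and for SFPQ 0.12. These values describe 48 libraries that share depth and scaling between both measures, and the part of the intron share in the results was not tested beyond the fit with the share as a covariate given below.

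**Figure D1:**
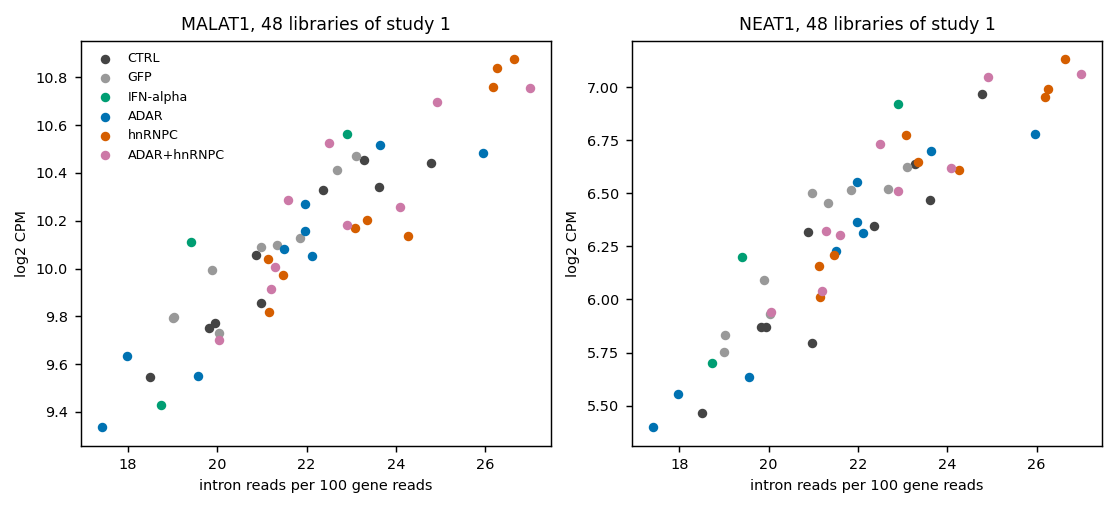
Log2 CPM of MALAT1 (left) and NEAT1 (right) against the number of intron reads per 100 gene reads in the 48 libraries of study 1, 1 point per library, colored by targeting or treatment. Libraries of all groups lie along 1 rising band, with r = 0.94 for MALAT1 and 0.96 for NEAT1 after subtraction of group means.

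Whether loss of hnRNPC changes the nuclear RNAs was asked against CTRL cells of the same day. On day 3, MALAT1 had 1402, 1287, and 863 CPM in CTRL and 1880.4, 1734, and 901 CPM in hnRNPC-targeted cells. NEAT1 had 99.6, 81.3, and 58.4 CPM in CTRL and 140.2, 124, and 64.6 CPM in hnRNPC-targeted cells. The groups overlapped for both RNAs. The log2 difference was 0.35 ± 0.31 (SE) for MALAT1 and 0.46 ± 0.36 for NEAT1 (edgeR adjusted p = 0.394 and 0.321). The study describes its replicates as independent experiments, whereas the labels give only their numbers.

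On day 4, MALAT1 differed by 0.39 ± 0.31 and NEAT1 by 0.54 ± 0.36 (edgeR adjusted p = 0.298 and 0.211). By day 5, the 3 hnRNPC-targeted libraries lay close together, at 1152, 1179, and 1125 CPM of MALAT1 and 109, 100.1, and 97.7 CPM of NEAT1. The CTRL libraries spread around them, at 1391, 874, and 1064 CPM of MALAT1 and 125, 58.5, and 79.6 CPM of NEAT1. The differences were 0.05 ± 0.31 and 0.22 ± 0.35 on the log2 scale. No difference of MALAT1 or NEAT1 from CTRL passed in hnRNPC-, ADAR-, ADAR+hnRNPC-, GFP-targeted, or IFN-α-treated cells of study 1 at an adjusted p of 0.05. A fit without the filter on low values did call NEAT1 higher in hnRNPC-targeted cells on all days (edgeR adjusted p = 6.73e-08, 4.40e-11, and 0.0157) and MALAT1 on days 3 and 4 (2.16e-05 and 4.74e-07). It also called NEAT1 higher in ADAR+hnRNPC-targeted cells on days 3 and 4 (edgeR adjusted p = 0.000500 and 1.93e-12), MALAT1 there on day 4 (8.12e-08), and NEAT1 with IFN-α (1.48e-05), and the cause was not tested. A fit added after seeing the data held the share of intron reads as a covariate. On days 3, 4, and 5, hnRNPC-targeted cells then differed by −0.13, 0.053, and −0.21 in MALAT1 and by −0.093, 0.17, and −0.040 in NEAT1. None passed, and the direction depends on this term. On day 3 the share was itself 26.6, 26.2, and 21.2 in hnRNPC-targeted and 23.3, 22.4, and 19.8 in CTRL cells. The term can thus take up part of a response to targeting.

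The protein-coding members were lower in hnRNPC-targeted cells. Of 18 comparisons (6 genes on 3 days), 8 passed, all in SFPQ, NONO, PSPC1, or MATR3 and all lower. The number passing was 2, 2, and 4 of 6 genes on days 3, 4, and 5, beside 38, 51.4, and 64.8% of all genes tested, so the share was near that of other genes. On day 5, 29.5% of all genes passed as higher and 35.2% as lower. The median of the 6 genes was −0.19 on day 5, and that of all genes −0.03. In such bulk samples, fewer cells and less RNA per cell cannot be told apart.

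SFPQ, the DBHS protein that also acts in splicing and transcription, fell furthest of the family on days 4 and 5. It had 666, 641, and 616 CPM in CTRL and 559.9, 575, and 559 CPM in hnRNPC-targeted cells on day 3. On day 5 it had 603, 554, and 674 CPM in CTRL and 419, 427, and 481 CPM in hnRNPC-targeted cells. The groups did not overlap on any day. SFPQ was lower by 0.18 ± 0.06 (SE) on day 3 and by 0.41 ± 0.06 on day 4 on the log2 scale, and on day 5 it was at 0.725 times the CTRL level (log2 −0.46 ± 0.06, edgeR adjusted p = 6.60e-08). The call on day 3 (edgeR adjusted p = 0.0212) was lost without CTRL replicate 1 and without hnRNPC replicate 1 or 3, where the difference was −0.15, −0.18, and −0.18. It was also lost with DESeq2 and without TMM factors (−0.12 in both) and without the filter on low values (−0.18).

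MATR3 was at 0.716 times the CTRL level on day 5. It had 772, 837, and 829 CPM in CTRL and 553, 614, and 579 CPM in hnRNPC-targeted cells, with no overlap. The log2 difference was −0.48 ± 0.05 (edgeR adjusted p = 7.84e-10). On day 3 it was −0.11 ± 0.05 and did not pass (edgeR adjusted p = 0.102). On day 4 it was −0.17 ± 0.05 and passed (edgeR adjusted p = 0.00844), a call that was lost without CTRL replicate 2 (−0.13), without hnRNPC replicate 1 (−0.14), without the filter on low values, and with only the groups compared (−0.17 in both).

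NONO, the partner of SFPQ, and PSPC1, the third DBHS protein, moved less. NONO had 556, 576, and 557 CPM in CTRL and 522, 497, and 464 CPM in hnRNPC-targeted cells on day 5 (log2 −0.19 ± 0.045, edgeR adjusted p = 0.000436). PSPC1 had 112, 113, and 128 CPM in CTRL and 102, 103, and 103 CPM in hnRNPC-targeted cells on that day (log2 −0.20 ± 0.05, edgeR adjusted p = 0.000999). Neither pair of groups overlapped. PSPC1 also passed on day 3 (log2 −0.19), a call lost without TMM factors (−0.12) and without the filter on low values (−0.19). Against GFP-targeted in place of CTRL cells, NONO passed on days 3 and 4 (−0.12 on both) and PSPC1 on day 4 (−0.19). On day 4, NONO also passed without hnRNPC replicate 2 (−0.12) and PSPC1 without hnRNPC replicate 3 (−0.14). No member reached an absolute log2 difference of 1 in study 1.

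ADAR targeting alone gave no call. None of 18 comparisons passed by edgeR (0, 1, and 2 of 6 at an unadjusted p under 0.05 on days 3, 4, and 5), where 0, 0.645, and 9.23% of all genes passed. DESeq2 called 2, which were SFPQ on day 4 (−0.23) and NONO on day 5 (−0.10), and edgeR called SFPQ on day 4 without ADAR replicate 1 (−0.29). With the share of intron reads as a covariate, SFPQ on day 4 (−0.22) and MATR3 on day 5 (−0.12) passed. SFPQ had 649.5, 555, and 589 CPM in ADAR-targeted cells on day 4 and 723, 694, and 679 CPM in CTRL cells. These groups did not overlap, and the log2 difference of −0.23 ± 0.06 missed the threshold (edgeR adjusted p = 0.0816). GFP targeting, a second control, gave 0 of 18 calls by edgeR (0, 1, and 0 of 6 at an unadjusted p under 0.05) and 0 by DESeq2, beside 0.0303, 0.0227, and 7.3% of all genes.

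IFN-α, which is known to act on many genes of monocytes, changed 18.3% of all genes on day 4. None of the 6 genes passed by edgeR or DESeq2, and 0 had an unadjusted p under 0.05. NEAT1 had 121, 52.0, and 73.5 CPM with IFN-α and 88.4, 55.6, and 44.2 CPM without (log2 0.39 ± 0.36, edgeR adjusted p = 0.496). With the share of intron reads as a covariate, a fit added after seeing the data, NEAT1 was higher by 0.51 and passed (edgeR adjusted p = 5.80e-05). In CTRL cells, day 5 against day 3 gave 25.7% of all genes and none of the 6 by edgeR (1 at an unadjusted p under 0.05). DESeq2 called PSPC1 and MATR3, each at 0.13, and edgeR called PSPC1 without CTRL replicate 1 of day 5 (0.15) and MATR3 without TMM factors (0.11) and with the intron share (0.098).

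**Figure D2:**
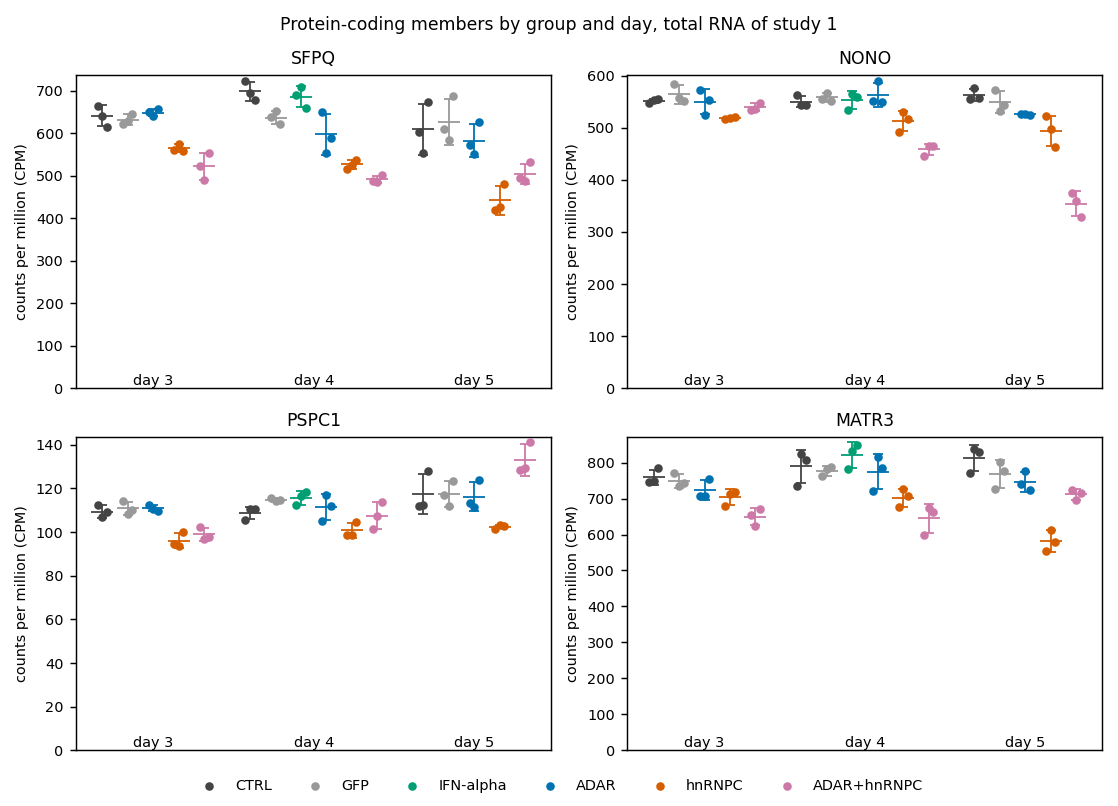
CPM of SFPQ, NONO, PSPC1, and MATR3 in each library of study 1 (points), with the mean and SD of each group (bars, n = 3), by day and targeting. In hnRNPC- and ADAR+hnRNPC-targeted cells, SFPQ lies below CTRL on all days, NONO reaches 328 to 374 CPM on day 5 of ADAR+hnRNPC targeting, and PSPC1 lies at 129 to 141 CPM there.

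In ADAR+hnRNPC-targeted cells, 10 of 18 comparisons passed, 9 lower and 1 higher. The number was 3, 3, and 4 of 6 genes on days 3, 4, and 5, beside 28.7, 57, and 73.5% of all genes. On day 5, 34.5% of all genes passed as higher and 39% as lower. NONO fell by 0.26 on the log2 scale on day 4, and on day 5 it had 374, 360.0, and 328 CPM, below every CTRL library (log2 −0.67 ± 0.045, edgeR adjusted p = 5.39e-16). PSPC1 had 129, 129, and 141 CPM on day 5, above every CTRL library (log2 0.18 ± 0.05, edgeR adjusted p = 0.00213). This call was lost without the filter on low values (0.18). SFPQ was lower on all days (log2 −0.30, −0.51, and −0.27), and so was MATR3 (−0.22, −0.29, and −0.19). PSPC1 was lower on day 3 (−0.14), a call lost without CTRL replicate 1 or 3 (−0.12 and −0.15) and without ADAR+hnRNPC replicate 2 or 3 (−0.13 and −0.13). That call was also lost with DESeq2 or without TMM factors (−0.12 in both) and with DESeq2 size factors or without the filter (−0.14 in both). On day 5, SFPQ (−0.16) and MATR3 (−0.08) did not pass without TMM factors, nor did MATR3 with GFP-targeted cells as control (−0.11).

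The response to both gRNAs was then compared with the sum of the responses to each, as an interaction term. It passed for 0, 1, and 4 of the 6 genes on days 3, 4, and 5, beside 0, 11.1, and 47.6% of all genes. On day 5, NONO was lower than the sum by 0.38 ± 0.06 on the log2 scale (edgeR adjusted p = 5.14e-06). PSPC1, MATR3, and SFPQ were higher than the sum, by 0.39 ± 0.07, 0.41 ± 0.08, and 0.26 ± 0.09 (edgeR adjusted p = 2.73e-05, 2.60e-05, and 0.0172). For MALAT1 and NEAT1 the interaction on day 5 was −0.07 ± 0.44 and −0.12 ± 0.50.

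**Figure D3:**
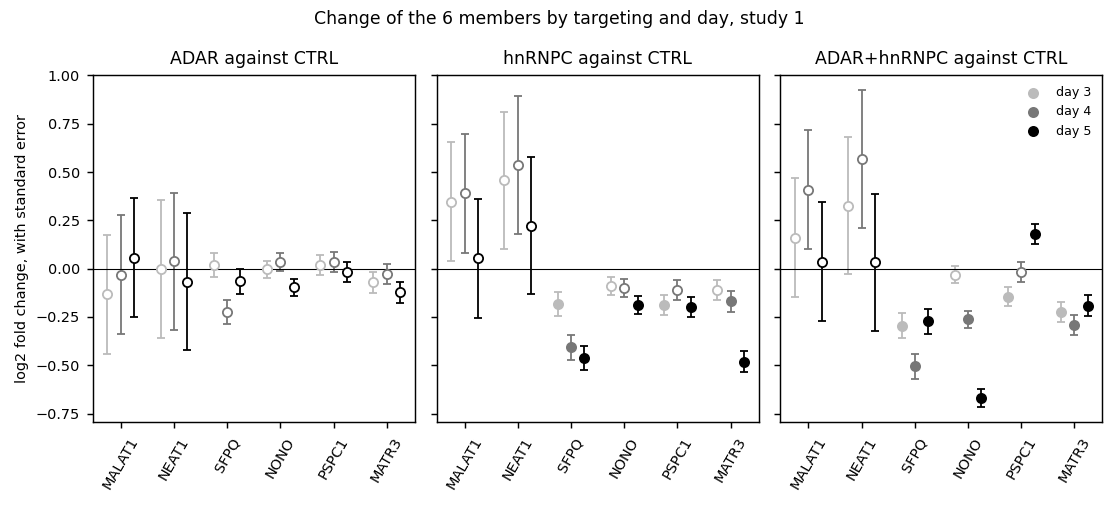
Log2 fold change against CTRL cells of the same day with its standard error for the 6 genes after targeting of ADAR, HNRNPC, or both in study 1, by day. Filled points passed at an adjusted p of 0.05 and open points did not. MALAT1 and NEAT1 have standard errors of 0.31 to 0.36 and no filled point, NONO reaches −0.67 on day 5 of ADAR+hnRNPC targeting, and SFPQ and MATR3 reach −0.46 and −0.48 on day 5 of hnRNPC targeting.

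The members were set beside a list of 34 other genes for paraspeckle components, of which 32 were tested. On day 5 of hnRNPC targeting, 8 passed as higher, 16 as lower, and 8 did not pass (median −0.17), where 29.5% of all genes were higher and 35.2% lower. RBM3, a cold-inducible RNA-binding protein, fell by 1.05 on the log2 scale, and AHDC1 rose by 1.52, at a low level. With ADAR+hnRNPC targeting, 6 were higher, 19 lower, and 7 did not pass (median −0.48, beside −0.04 for all genes), where 34.5% of all genes were higher and 39% lower. RBM3 fell by 1.06, the hnRNPs HNRNPA1 and HNRNPH1 by 1.11 and 1.01, and ZC3H6 rose by 1.20. Of 11 genes for nuclear speckle components, 1 was higher and 3 lower with hnRNPC targeting, and 2 were higher and 7 lower with ADAR+hnRNPC targeting, where the splicing factor SRSF1 fell by 1.23. ADAR targeting gave 1 higher and 7 lower of the 32 paraspeckle genes on day 5, beside 9.23% of all genes, and 0 of 32 on days 3 and 4.

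Over the 16 group means of study 1, the genes most like MALAT1 were FTX (r = 0.89), CCNL2 (0.87), and SLC25A35 (0.86). Those most like NEAT1 were PTOV1-AS2 (0.87), MALAT1 (0.86), and SEC31B (0.85). These are descriptions over 16 means that share libraries and scaling.

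Intron reads show whether the lower mRNA levels of the protein-coding members went along with more reads in introns. Such reads can come from unspliced RNA or from intron pieces built into spliced transcripts, and the counts cannot tell these apart. Some of the intervals also hold bases that the newer annotation lists as exon. The intron table held 50 introns of these 4 genes and none of MALAT1 or NEAT1, and 33 passed the filter on low values. Over these introns, 54 of 198 comparisons passed (33 introns, 3 days, and hnRNPC or ADAR+hnRNPC targeting). All tested introns passed in 11, 16.2, and 29.9% with hnRNPC targeting on days 3, 4, and 5, and in 6.7, 19.8, and 50.6% with ADAR+hnRNPC targeting, where the median of all introns on day 5 was −0.28. None of the 33 passed with ADAR targeting, nor did more than 0, 0.00459, and 0.0138% of all introns.

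1 intron of NONO (chrX:70504948-70510478) rose on all days of hnRNPC targeting, whereas NONO mRNA was lower and passed on day 5 alone. It had 3.94, 3.77, and 2.88 CPM in CTRL and 8.23, 7.60, and 6.30 CPM in hnRNPC-targeted cells on day 3, with no overlap. The log2 difference was 1.06 ± 0.17, 1.02 ± 0.17, and 0.73 ± 0.17 on days 3, 4, and 5 (edgeR adjusted p = 9.47e-06, 1.09e-05, and 0.000718). With ADAR+hnRNPC targeting it was 0.84, 0.86, and 0.44, and all passed. The interval also holds 957 bases that the newer annotation lists as exon of some transcript. On day 5 of ADAR+hnRNPC targeting, 6 of the 9 tested NONO introns were lower (median −0.93 over the 9). Most of the 9 intervals lie wholly in bases that the newer annotation lists as exon, and the others in part. NONO mRNA was lower in the same cells, and exon reads cannot be set apart in these counts.

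In PSPC1, the intron chr13:20333559-20346381 rose on all days of hnRNPC targeting, by 0.56, 0.92, and 0.87 on the log2 scale on days 3, 4, and 5. On day 5 it had 3.36, 2.83, and 3.31 CPM in CTRL, 5.48, 5.94, and 5.98 CPM in hnRNPC-targeted, and 9.67, 10.3, and 11.5 CPM in ADAR+hnRNPC-targeted cells. No group overlapped another. The log2 difference from CTRL on day 5 was 0.87 ± 0.18 with hnRNPC and 1.73 ± 0.19 with ADAR+hnRNPC targeting (edgeR adjusted p = 0.000291 and 8.03e-10). A second PSPC1 intron, chr13:20304485-20315704, rose by 0.62, 0.80, and 0.50 on days 3, 4, and 5 of hnRNPC targeting. It also holds the pseudogene RN7SL166P.

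In MATR3, the intron chr5:138658657-138661128 had 11.4, 13.6, and 12.3 CPM in CTRL, 17.3, 20.02, and 17.6 CPM in hnRNPC-targeted, and 22.4, 20.4, and 20.7 CPM in ADAR+hnRNPC-targeted cells on day 5. It passed on every day of both, with 0.38, 0.58, and 0.56 for hnRNPC and 0.27, 0.44, and 0.77 for ADAR+hnRNPC targeting on the log2 scale. MATR3 mRNA was lower in the same groups and passed in all but hnRNPC targeting on day 3. No tested SFPQ intron rose, and 3 of 5 were lower on day 5 of hnRNPC targeting.

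Since hnRNPC is known to bind runs of U in nascent RNA and to keep splice sites of antisense Alu elements from use, these introns were searched for runs of at least 9 T on the transcribed strand. Below is 1 window for the first intron described of each of NONO, PSPC1, and MATR3, shown because it holds the longest run of that intron, 5′ to 3′ on the strand of the gene from the GRCh37 reference, with the run in capitals.

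NONO intron, chrX:70507967-70507994: atcTTTTTTTTTTTTTTTTTTTTTcttg

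PSPC1 intron, chr13:20338818-20338845: caccTTTTTTTTTTTTTTTTTTTaaggc

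MATR3 intron, chr5:138659976-138660003: attgTTTTTTTTTTTTTTTTTTTTggag

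The runs were 21, 19, and 20 bases long. Such runs are common: 64.3% of 5694 other tested introns on the same chromosomes had at least 1, and among introns of like length the share was 79.3%, 93.5%, and 56.1% for the NONO, PSPC1, and MATR3 introns. The NONO intron had 0.904, the PSPC1 intron 0.936, and the MATR3 intron 0.405 runs per kilobase, where introns of like length had a median of 0.340, 0.372, and 0.263. Some other introns of these genes had more, such as 1.02 in PSPC1 (chr13:20325608-20333462) and 1.67 in MATR3 (chr5:138655191-138657586), and others had fewer or none. A run is a description of the sequence and not a binding site.

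1 of the editing cluster regions (ECRs), the intervals around clustered A-to-I editing sites in which the study counted reads, overlapped a member. It lies in MATR3 (chr5:138658333-138660535), overlaps the rising intron, and starts before it. The region also holds 324 bases listed as MATR3 exon. Exon and intron reads cannot be told apart in its count, so a change cannot be assigned to the edited sites. Its level was 96.6 to 158 CPM over the 48 libraries, above that of the whole rising intron on day 5. It was lower with hnRNPC targeting by 0.20 ± 0.06 on day 3 and by 0.41 ± 0.06 on day 5 (edgeR adjusted p = 0.0101 and 4.58e-07), and with ADAR+hnRNPC targeting by 0.18 on days 3 and 4. Both calls of day 3 were lost without CTRL replicate 3 of that day, which left 2 of 4 calls. It did not pass on day 4 of hnRNPC (−0.07) or on day 5 of ADAR+hnRNPC targeting (0.01). All ECRs passed in 34.9, 44.1, and 53.6% with hnRNPC and in 28.4, 47.6, and 66.8% with ADAR+hnRNPC targeting on days 3, 4, and 5.

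A-to-I editing was read from reads with the edited base over all reads at the listed sites. By its methods, the study listed a site only if it reached a minimum editing frequency in a sample without ADAR targeting. This choice favors sites with less editing in ADAR-targeted cells. In study 1, NEAT1 had 51 listed sites, MATR3 138, PSPC1 97, NONO 43, MALAT1 5, and SFPQ none. All 729 site records of the members in both studies lay at an A of GRCh37 on the strand of the gene. Sites of NEAT1 lay 16636 to 19929 bases from the start of the gene, where the long transcript alone is annotated. None of the MATR3 or PSPC1 sites of study 1 lay in an annotated exon. The following windows show 2 sites each of NEAT1 and MATR3, from those with the highest editing in CTRL cells among sites with at least 100 reads, with the edited A in capitals.

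NEAT1, chr11:65210076-65210104: gagtatggtggctcAcgcctgaatcttag

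NEAT1, chr11:65208841-65208869: cccggactggtctcAaacttctggactca

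MATR3, chr5:138659515-138659543: agttgcagttagccAagatcacatcactg

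MATR3, chr5:138659448-138659476: tggcacatacctgtAgcagctacttggaa

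Pooled over days, the first NEAT1 site was edited in 22.8% of 298 reads in CTRL, 12.5% of 335 reads in hnRNPC-targeted, and 6.75% of 237 reads in ADAR-targeted cells. The second was edited in 12.4% of 306, 21.5% of 410, and 1.14% of 263 reads. The first MATR3 site was edited in 43.5% of 138, 52.5% of 177, and 43.2% of 125 reads. Among these sites, the direction with hnRNPC targeting thus differed within NEAT1. They are given as values, since their order was chosen by the CTRL level.

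Summed over 50 sites, NEAT1 was edited in 2.49 ± 0.48% of reads in CTRL cells (SD, n = 9 libraries of days 3 to 5, range 1.61 to 3.02%) and in 0.685 ± 0.337% in ADAR-targeted cells (range 0.242 to 1.35%). The ranges did not overlap (exact permutation test, two-sided, p = 4.11e-05, the smallest that 9 against 9 can give, adjusted p = 0.000165 over 4 tests). The sites were listed through samples without ADAR targeting, which favors a lower level in ADAR-targeted cells. The test does not allow for this choice. In hnRNPC-targeted cells the level was 3.56 ± 0.65% (range 2.59 to 4.34%), higher by 1.07 percentage points, with overlap (exact permutation p = 0.00160, adjusted p = 0.00214). By the study's methods, a site could be listed through the replicates of 1 treatment alone, such as hnRNPC targeting, where it may be high. The test does not allow for that choice either. The median number of reads per library was 1286 (range 557 to 3403). IFN-α-treated cells had 3.18, 2.96, and 6.25%, and ADAR+hnRNPC-targeted cells 1.18 ± 0.54%. Over the sites with at least 10 reads in every library compared, the differences from CTRL were −0.67 (ADAR) and 1.32 (hnRNPC) percentage points, and both passed. The 9 libraries of an arm are 3 days of 3 replicates, and this test takes them as independent. With labels exchanged within days alone, a test added after seeing the data, the exact permutation p was 0.000250 for ADAR and 0.00175 for hnRNPC targeting (adjusted p = 0.00100 and 0.00233). By day, NEAT1 editing differed by −1.38, −1.94, and −2.10 percentage points with ADAR and by 1.32, 0.661, and 1.21 with hnRNPC targeting. The libraries overlapped with those of CTRL on day 4 of hnRNPC targeting alone.

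MATR3 was edited in 6.49 ± 1.67% of reads over 133 sites in CTRL and in 4.04 ± 0.92% in ADAR-targeted cells, a difference of −2.46 percentage points (exact permutation p = 0.000658, adjusted p = 0.00132). As for NEAT1, the choice of sites favors a lower level with ADAR targeting. The ranges overlapped (4.68 to 9.78% and 2.40 to 5.43%). In hnRNPC-targeted cells it was 7.68 ± 1.02% (exact permutation p = 0.0865, adjusted p = 0.0865), which did not pass. Here too, a site could be listed through hnRNPC-targeted replicates alone. Without CTRL replicate 3 of day 4, the difference was 1.60 percentage points and passed (exact permutation, adjusted p = 0.0107). With labels exchanged within days, the exact permutation p was 0.00175 for ADAR and 0.0810 for hnRNPC targeting (adjusted p = 0.00233 and 0.0810). PSPC1 and NONO, with a median of 768 and 472 reads per library, were not tested. PSPC1 was edited in 5.40 ± 2.46% in CTRL and 2.45 ± 0.87% in ADAR-targeted cells, and NONO in 3.36 ± 1.24% and 1.02 ± 0.65%. The 5 MALAT1 sites had 6 edited of 6501 reads in all. By the study's methods, a listed site needed editing in all 3 replicates of some treatment. So few edited reads cannot meet this at each of the 5 sites, and the reason was not tested.

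Reads at the NEAT1 sites also give a measure of the distal part of the gene, which the short transcripts do not reach. The summed depth at the 50 sites per 100 NEAT1 gene reads ranged from 8.14 to 23.1 over the libraries of study 1. Its mean was 15.2 in CTRL, 15.4 in GFP-, 16.2 in ADAR-, 12.9 in hnRNPC-, and 12.8 in ADAR+hnRNPC-targeted cells. The ranges of these groups overlapped (9.42 to 23.1 in CTRL and 8.75 to 17.5 in hnRNPC-targeted cells), and a read that covers several sites counts at each.

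Study 2 asked where the RNAs are. Its 2 CTRL libraries of total RNA differed, which touches every comparison with them. MALAT1 had 1148 CPM in replicate 1 and 2723 CPM in replicate 2, and NEAT1 169.6 and 337 CPM. The mitochondrial MT-ND4 had 89.9 and 371 CPM, the nuclear KCNQ1OT1 31.9 and 55.3 CPM, and the cytosolic EEF1A1 14596 and 9477 CPM. HNRNPC had 910 and 581 CPM. Replicate 2 was thus higher in nuclear and mitochondrial and lower in cytosolic RNA. Calls of the 6 genes that were gained or lost without it are given below, whereas genes of the lists are given with it alone.

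NEAT1 was lower in cytosolic than in total RNA in all 4 gRNA groups, and MALAT1 in CTRL and ADAR+hnRNPC-targeted cells. CTRL cells had 731 and 875 CPM of MALAT1 and 94.0 and 149 CPM of NEAT1 in the cytosol, below both total libraries. The log2 difference was −1.27 ± 0.29 for MALAT1 and −1.06 ± 0.27 for NEAT1 (edgeR adjusted p = 0.00196 and 0.00452). Without CTRL total replicate 2 it was −0.54 and −0.51, and neither passed. The NEAT1 call was also lost without CTRL cytosolic replicate 1 (−0.77). In ADAR+hnRNPC-targeted cells, MALAT1 went from 1817 and 2219 CPM in total to 377 and 423 CPM in cytosolic RNA (log2 −2.33 ± 0.30, edgeR adjusted p = 2.24e-05). NEAT1 went from 186 and 226 to 40.9 and 50.6 CPM (−2.17 ± 0.28, edgeR adjusted p = 2.71e-05).

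In hnRNPC-targeted cells, MALAT1 had 1416 and 867 CPM in total and 940.0 and 696 CPM in cytosolic RNA. The libraries overlapped, and the difference of −0.48 ± 0.29 did not pass, whereas NEAT1 did (−0.83 ± 0.27, edgeR adjusted p = 0.0193). In ADAR-targeted cells NEAT1 passed (−0.80 ± 0.28) and MALAT1 did not (−0.72 ± 0.29, edgeR adjusted p = 0.0516), although it did with limma-voom, without the filter on low values, and with only the groups compared (−0.72 in each). Without the filter, MALAT1 also passed in hnRNPC-targeted cells (−0.48). The NEAT1 call was lost without total replicate 1 (−0.51 in either group) and without either cytosolic replicate (−0.86 and −0.81 for hnRNPC, −0.78 and −0.83 for ADAR). Against nuclear RNA of hnRNPC-targeted cells, which had 2265 and 2024 CPM of MALAT1 and 321 CPM of NEAT1 in both libraries, the cytosol was lower by 1.39 ± 0.29 and 1.57 ± 0.28 on the log2 scale (edgeR adjusted p = 0.000419 and 8.57e-05).

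The mRNAs of the 4 proteins were not depleted from the cytosol on the main scale. In ADAR+hnRNPC-targeted cells they were higher in cytosolic than in total RNA, SFPQ by 0.52, NONO by 0.35, PSPC1 by 0.41, and MATR3 by 0.44 on the log2 scale. All 4 passed, but scaled on 6 cytosolic mRNAs they were at −0.033, −0.21, −0.15, and −0.11, so the direction depends on the scaling. On that scaling the 4 were lower than in total RNA and passed in CTRL (−0.44, −0.35, −0.30, and −0.43) and in hnRNPC-targeted cells (−0.38, −0.27, −0.31, and −0.41). With TMM factors, the NONO call in ADAR+hnRNPC-targeted cells was lost without total replicate 2 (0.30) or either cytosolic replicate (0.36 and 0.34), and the MATR3 call without total or cytosolic replicate 2 (0.32 and 0.44). Without TMM factors NONO (0.13), PSPC1 (0.19), and MATR3 (0.23) did not pass, nor did NONO with DESeq2 (0.18). The median of all genes was itself 0.24 in that comparison, 0.19 in CTRL, 0.09 in hnRNPC-, and 0.11 in ADAR-targeted cells, and 0.27 for cytosolic against nuclear RNA. In the other 3 gRNA groups none of the 4 passed with TMM factors. SFPQ did in ADAR-targeted cells with only the groups compared (0.22), and NONO (0.31) and PSPC1 (0.33) did in CTRL cells without total replicate 1, whereas without total replicate 2 SFPQ, NONO, PSPC1, and MATR3 were at −0.20, −0.038, 0.033, and −0.13 in CTRL cells and did not pass. SFPQ was at 0.03 ± 0.14 in CTRL and −0.10 ± 0.14 in hnRNPC-targeted cells.

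Of the 6 genes, 2, 1, 1, and 6 passed for cytosolic against total RNA in CTRL, hnRNPC-, ADAR-, and ADAR+hnRNPC-targeted cells, beside 51.3, 46, 43, and 54.9% of all genes, and 2 for cytosolic against nuclear RNA, beside 70.9%. DESeq2 also called SFPQ (−0.29) and MATR3 (−0.24) lower in cytosolic than in nuclear RNA. The nuclear RNA KCNQ1OT1 was lower in the cytosol by 1.75 in CTRL cells, FTX by 0.60, and PVT1 by 0.37, whereas TUG1 (−0.36) did not pass. Mitochondrial MT-CO1, MT-CYB, MT-ND1, and MT-ND4 were lower by 6.58, 5.75, 5.68, and 5.66. Cytosolic ACTB, GAPDH, RPLP0, and EEF1A1 were higher by 0.42, 0.45, 0.66, and 0.50, whereas TUBA1B (0.43) and PGK1 (0.06) did not pass.

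**Figure D4:**
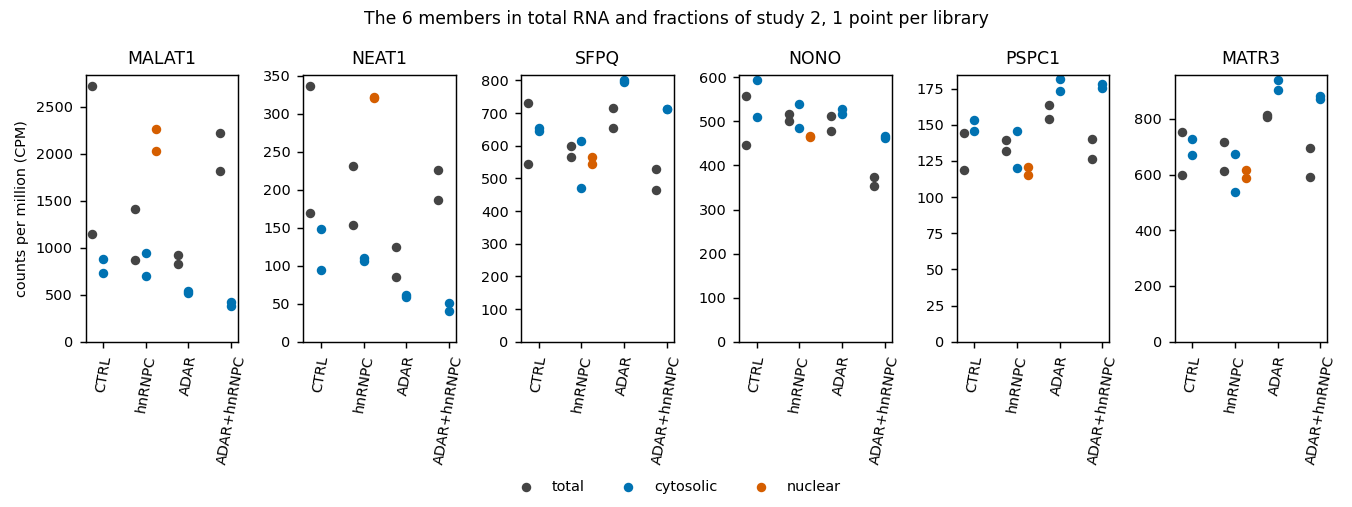
CPM of the 6 genes in each library of study 2 (points, n = 2 per group) in total (black), cytosolic (blue), and nuclear (orange) RNA, with a scale of its own for each gene. MALAT1 and NEAT1 are lowest in the cytosol of ADAR+hnRNPC-targeted cells, at 377 and 423 CPM and at 40.9 and 50.6 CPM, and the 2 CTRL libraries of total RNA differ, at 1148 and 2723 CPM of MALAT1.

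Whether targeting changed the distribution was tested as the difference of the cytosolic-to-total contrast from that in CTRL cells. None of the 6 genes passed for hnRNPC, ADAR, or ADAR+hnRNPC targeting by edgeR (0, 0, and 3 at an unadjusted p under 0.05) or by DESeq2, where 0, 1.72, and 4.56% of all genes passed. For ADAR+hnRNPC targeting the difference was −1.07 ± 0.41 for MALAT1 and −1.11 ± 0.39 for NEAT1 (edgeR adjusted p = 0.188 and 0.138). Without CTRL total replicate 2, it was −1.83 for MALAT1, −1.70 for NEAT1, 0.69 for SFPQ, and 0.54 for MATR3, and these 4 passed. For hnRNPC targeting, MALAT1 was at 1.28 and passed without CTRL total replicate 1, and it was at 0.79 and passed without the filter on low values. That fit also called MALAT1 (−1.07) and NEAT1 (−1.11) for ADAR+hnRNPC targeting.

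In total RNA of study 2, hnRNPC targeting gave no call among the 6 genes by edgeR or DESeq2 (1 at an unadjusted p under 0.05 by edgeR), beside 5.11% of all genes. SFPQ had 566 and 598 CPM, between the CTRL libraries at 732 and 544 CPM. Without CTRL total replicate 1, MALAT1 (−1.25) and NEAT1 (−0.81) were lower and passed, whereas without replicate 2 they were at 0.014 and 0.20 and did not. Without the filter on low values MALAT1 was lower and passed (−0.76). ADAR targeting, with 12.9% of all genes, gave lower MALAT1 (log2 −1.15 ± 0.29, edgeR adjusted p = 0.0164) and lower NEAT1 (−1.27 ± 0.28, adjusted p = 0.00708), at 917 and 824 CPM and at 125 and 85.6 CPM. Without CTRL total replicate 2 these were −0.36 and −0.65 and did not pass. MALAT1 also did not pass without ADAR total replicate 1 or 2 (−1.23 and −1.08), nor NEAT1 without replicate 2 (−1.02). ADAR+hnRNPC targeting, with 34.7% of all genes, gave lower NONO, with 375 and 354 CPM against 558 and 447 CPM in CTRL (−0.46 ± 0.12, edgeR adjusted p = 0.00722). Without CTRL total replicate 1 NONO was at −0.29 and did not pass, and without replicate 2 MALAT1 (0.87) and SFPQ (−0.50) passed. NONO did not pass with only the groups compared (−0.46), and SFPQ was lower and passed with DESeq2 (−0.28), with DESeq2 size factors (−0.34), and without the filter (−0.37). Without CTRL total replicate 1, PSPC1 (0.42) and MATR3 (0.43) were higher and passed with ADAR targeting. Without TMM factors, PSPC1 was higher and passed with ADAR (0.26) and ADAR+hnRNPC targeting (0.23).

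In study 2, NEAT1 was edited at 11 sites in 5.33 and 6.36% of reads in total RNA of CTRL cells and in 1.24 and 0.338% in that of ADAR-targeted cells. Cytosolic RNA had 7.13 and 6.07% in CTRL and 0.571 and 1.89% in ADAR-targeted cells. MATR3 was edited in 4.75 and 5.94% of reads in total and in 10.5 and 10.3% in cytosolic RNA of CTRL cells, and in 5.92 and 6.71% in total and 10.9 and 12.3% in cytosolic RNA of hnRNPC-targeted cells, with 4.68 and 5.49% in nuclear RNA. These values, of 2 libraries a group and other sites than in study 1, were not tested.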

How the data were processed

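The authors aligned reads of stranded, rRNA-depleted libraries to GRCh37 with STAR 2.5.4a and deposited raw counts of unique reads per gene (featureCounts, GENCODE v19 exons), intron, and editing cluster region, and edited and total read counts per editing site. The strand setting of the counting is not given in the sources used here. Gene positions and exon lengths come from a GENCODE annotation lifted to GRCh37.

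Each study had its own model, into which every group entered as a term of its own (edgeR 4.0.16 quasi-likelihood test, R 4.3.3, TMM factors). Features were kept from a mean log2 CPM of 0.5 (genes), 1 (introns), or 4.5 (editing cluster regions). This kept 13187 genes in study 1 and 13637 in study 2. A feature passed at an edgeR adjusted p (Benjamini-Hochberg, over all features tested) of at most 0.05. Editing was summed per library and compared by a two-sided exact permutation test; the design's minimum of 1000 reads was read as a median per library after seeing the data. The script was tested on simulated data: for hnRNPC on day 5, 99% of genes changed by 1 and 20% of those changed by 0.5 on the log2 scale were recovered, and for cytosolic against total CTRL RNA 82% and 7%.

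Alternatives were DESeq2 1.42.0, limma-voom (limma 3.58.1), other scalings, filters and sets of libraries, GFP as control, a replicate block, and leaving out each library. The fit with the intron share, and leaving out libraries for introns, editing cluster regions, and editing, and the editing tests within days or pairs, were added after seeing the data. The 6 genes and the lists were chosen with earlier results of these data known. Named were the 6 genes; of the paraspeckle and nuclear speckle lists, up to 6 a list that passed with an absolute log2 difference of at least 1 on day 5; the 3 genes most like MALAT1 and NEAT1; all genes of the nuclear, cytosolic, and mitochondrial lists; and HNRNPC and ADAR. MIAT, of the nuclear list, was not tested. No 2 libraries agreed within sampling noise.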

Additional observations from a re-analysis of the deposited data

Results flagged for a closer look

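The response of 4 genes to ADAR+hnRNPC targeting in study 1 differed from the sum of the responses to ADAR and hnRNPC targeting, by a test of the interaction term (edgeR, adjusted over all genes). On day 5, NONO was lower than the sum by −0.38 on the log2 scale (SE 0.064), PSPC1 higher by 0.39 (0.072), MATR3 higher by 0.41 (0.076), and SFPQ higher by 0.26 (0.090). On day 4, NONO differed by −0.20 (0.064). The SFPQ call was lost without CTRL replicate 3 (0.18), hnRNPC replicate 1 (0.22), ADAR replicate 2 (0.22), or ADAR+hnRNPC replicate 3 (0.22), and without the filter on low values or with only the groups compared (0.26 in both). The NONO call of day 4 was lost without any CTRL replicate (−0.21, −0.17, and −0.19), without hnRNPC replicate 2 or 3 (−0.17 and −0.19), ADAR replicate 2 (−0.15), or ADAR+hnRNPC replicate 1 (−0.18). It was also lost without TMM factors (−0.11) and without the filter or with only the groups compared (−0.20 in both).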

How the results depend on the processing

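Of 1524 values of single genes under other settings, 1447 kept their side of the threshold, 25 lost a call, and 42 gained one. The other 10 reversed their direction with a call in either fit. A change of direction between fits that both gave no call was not counted as reversed. Leaving out 1 library gave 1056 values, of which 999 kept their side of the threshold, 40 lost a call, and 17 gained one. By the same rule 0 reversed, although some values without a call changed direction. The count of calls was 6 to 11 for hnRNPC (8 as reported) and 7 to 11 for ADAR+hnRNPC targeting (10). For ADAR targeting (0) it was 2 with DESeq2, 1 with the replicate block, 2 with the intron share, and 0 to 1 without 1 library. For IFN-α (0) it was 1 with no filter and 1 with the intron share. For CTRL day 5 against day 3 (0) it was 1 without TMM factors, 2 with DESeq2, 1 with the intron share, and 0 to 1 without 1 library. The interaction (5) gave 3 with no filter and 3 with only the groups compared. In study 2, total RNA (3) gave 5 without TMM factors, 5 with no filter, and 1 to 6 without 1 library, cytosolic against nuclear RNA (2) gave 4 with DESeq2, and the compartment interaction (0) gave 3 with no filter and 0 to 4 without 1 library. The editing cluster region gave 2 to 4 calls without 1 library, and MATR3 editing with hnRNPC targeting a difference of 0.966 to 1.60 percentage points.

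Scaled on cytosolic mRNAs, cytosolic against total RNA reversed for SFPQ, NONO, PSPC1, and MATR3 in CTRL (−0.44, −0.35, −0.30, and −0.43) and ADAR+hnRNPC-targeted cells (−0.033, −0.21, −0.15, and −0.11) and for NONO in hnRNPC-targeted cells (−0.27). With DESeq2, MATR3 reversed in cytosolic against nuclear RNA (−0.24). The causes were not tested.

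The study describes its replicates as independent experiments, but the sources used here do not say that a replicate number marks the same experiment in every group. Same-numbered libraries correlated at a median r of 0.17 in study 1 (lowest −0.36) and 0.15 in study 2 (lowest −0.34), and 40 of 48 and 16 of 18 libraries correlated best with their own number, a hint from the data and not the design. With the replicate block, hnRNPC targeting gave 10 calls, ADAR+hnRNPC targeting 10, and the interaction 5. It added SFPQ on day 4 of ADAR targeting (−0.23), and MATR3 on day 3 (−0.11) and PSPC1 on day 4 (−0.11) of hnRNPC targeting, while MALAT1 (0.33, 0.38, and 0.08) and NEAT1 (0.44, 0.55, and 0.27) did not pass on any day of hnRNPC targeting. Sign flips within same-day, same-numbered pairs changed no editing call. With at least 10 reads per site no MATR3 site was left. With 2 libraries a group in study 2, differences of 0.5 on the log2 scale were seldom recovered in simulated data.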
